A study of Mus musculus with 45 samples.

Results

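The water and sodium transport genes of the principal cell were described across male and female mouse kidneys in which *Pkd1*, or *Pkd1* and *Kif3a*, had been deleted from the tubules. The 10 genes were chosen by name for their role, not by a measured value, out of 55401 genes in the count tables. Earlier results of these data were known when they were chosen. They comprised the water channels *Aqp2*, *Aqp3* and *Aqp4*, the vasopressin receptor *Avpr2*, the sodium channel subunits *Scnn1a*, *Scnn1b* and *Scnn1g*, and the steroid-responsive genes *Hsd11b2*, *Nr3c2* and *Sgk1*. All 10 were among the 15828 protein-coding genes that passed the expression filter in both sexes.

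Translating ribosome affinity purification (TRAP) pulls down ribosomes tagged with EGFP, which enriches the RNA being translated in the tagged cells. All 45 mice carried the R26 Rpl10a-EGFP ribosomal tag with Pax8rtTA and TetOCre, and took doxycycline from postnatal day 28 to 42, which switched on Cre and the tag in *Pax8*-expressing kidney tubule cells of every segment, not in principal cells alone. Kidneys were taken at 7 weeks of age (postnatal day 49). Noncystic mice were Pkd1fl/+ (8 males, 7 females), Pkd1KO mice were Pkd1fl/fl (7 males, 8 females), and Pkd1KO+ciliaKO mice were Pkd1fl/fl;Kif3afl/fl (9 males, 6 females), *Kif3a* encoding a motor subunit needed to build cilia. The noncystic controls thus also lost 1 *Pkd1* copy and also received doxycycline.

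Principal cells line the connecting tubule and collecting duct. Vasopressin acts on the V2 receptor at their basolateral side, cAMP rises, and the water channel AQP2 moves to the apical membrane, while AQP3 and AQP4 let water leave on the blood side. Sodium enters through the epithelial sodium channel ENaC, built of alpha, beta and gamma subunits. Aldosterone acts through the mineralocorticoid receptor, encoded by *Nr3c2*, and the kinase SGK1 promotes ENaC at the cell surface. The enzyme encoded by *Hsd11b2* inactivates glucocorticoids and so keeps the receptor free for aldosterone. Vasopressin and cAMP are well known for driving fluid secretion in polycystic kidneys.

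Library depth ran from 80874556 to 132958186 counted fragments. *Kif3a* served as a check of the labels. In CPM, the count scaled to library size, it lay between 21.6 and 29.3 in the Pkd1KO males, and between 4.90 and 7.45 in the Pkd1KO+ciliaKO males. Of the females, the library labelled noncystic replicate 5 had 6.69 CPM, and the library labelled Pkd1KO+ciliaKO replicate 6 had 20.7 CPM, so 2 female libraries went against their labels. In the first principal component of all mice, which held 42.3% of the variance, 20 males lay at 14.4 or higher and 4 males between -30.2 and -1.13, beside females at or below -12.9. These 4 males were noncystic replicate 3, Pkd1KO replicate 4, and Pkd1KO+ciliaKO replicates 6 and 8. Where leaving out those of these 6 libraries that entered a genotype comparison ended or added a member's call, the value without them is given. The same was done where they touched a genotype call in groups that held them. Between the sexes, calls lost without the 6 are given with their value, and members called only as a count. *Pkd1* itself remained countable in every group, with medians of 36.6 CPM in Pkd1KO males and 49.3 CPM in noncystic males. Its count covers the whole gene, deleted exons included, and does not check the deletion. Markers of cells outside the tubules were counted as well. In noncystic males their sums had medians of 226 CPM for fibroblasts, 151 CPM for endothelium and 86.3 CPM for macrophages.

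The promoters of 3 members are shown because the level of these genes varied most from mouse to mouse or moved together, as described further on. RefSeq promoter windows of 300 bases (GRCm38.p6) were at hand for 7 of the 10 members. Capitals mark matches, on either strand, to TGACG (the core of a cAMP response element), AGATAA (the motif of GATA factors), TGTTCT (the core of a steroid receptor element) and TATAAA (the motif of the TATA box).
Aqp2, chr15:99578806-99579105, plus strand: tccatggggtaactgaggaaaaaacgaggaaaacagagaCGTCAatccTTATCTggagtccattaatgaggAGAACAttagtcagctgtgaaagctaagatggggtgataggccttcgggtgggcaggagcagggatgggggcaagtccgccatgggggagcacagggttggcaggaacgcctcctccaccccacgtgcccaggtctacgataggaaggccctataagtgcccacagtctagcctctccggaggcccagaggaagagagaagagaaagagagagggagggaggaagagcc
Aqp3, chr4:41098134-41098433, minus strand: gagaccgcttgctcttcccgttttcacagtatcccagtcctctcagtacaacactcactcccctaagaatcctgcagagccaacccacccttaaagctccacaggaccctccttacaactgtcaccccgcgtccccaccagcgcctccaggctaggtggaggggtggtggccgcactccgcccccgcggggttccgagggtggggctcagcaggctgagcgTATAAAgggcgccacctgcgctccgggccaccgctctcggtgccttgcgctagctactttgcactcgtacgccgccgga
Sgk1, chr10:21993640-21993939, plus strand, 1 of 6 start sites: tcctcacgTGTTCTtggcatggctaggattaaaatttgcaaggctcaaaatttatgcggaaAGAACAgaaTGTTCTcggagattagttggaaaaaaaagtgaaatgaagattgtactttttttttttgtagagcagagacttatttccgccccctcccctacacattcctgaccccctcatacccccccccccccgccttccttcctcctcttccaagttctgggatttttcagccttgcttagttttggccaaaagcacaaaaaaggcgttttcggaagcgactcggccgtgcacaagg
The *Aqp2* window held TGACG at base 40, AGATAA at base 49 and TGTTCT at base 72, each on the reverse strand. The *Aqp3* window held TATAAA at base 222. The *Sgk1* window, shown because it had the most matches to TGTTCT of the 6, held 3; of the other windows, those starting at 21881934 and 21991973 held 1 each and the rest 0. The windows of *Scnn1b* and *Scnn1g*, which also varied together, and of *Nr3c2* are not shown and held none of these motifs. The *Avpr2* window, also not shown, held TGTTCT at bases 192 and 201 and TATAAA, on the reverse strand, at base 206. Among all 32851 promoter windows, 20.8% held TGACG, 11.2% AGATAA, 19.0% TGTTCT and 13.6% TATAAA, so each motif alone is common.

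Per length, the 9 countable members ranged from medians of 10.6 to 420.5 TPM in males. In TPM, which also divides by transcript length, *Aqp2* was the most abundant member, with a median of 420.5 TPM over the males and 647 TPM over the females; the TPM tables of the sexes were normalized separately. *Hsd11b2* followed at 173 TPM in males, then *Aqp3* at 117 TPM and *Scnn1a* at 101 TPM. *Sgk1* (62.7 TPM), *Scnn1g* (61.4 TPM) and *Scnn1b* (49.2 TPM) formed the next group in males, and the ranges of these 3 genes overlapped. *Nr3c2* had 21.5 TPM and *Aqp4* 10.6 TPM in males. The levels of neighbours in this order overlapped between mice, so the order is one of medians.

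*Avpr2* could not be assessed. The vasopressin V2 receptor gene (chromosome X, 73892102 to 73895502) had 0 to 19 fragments per mouse, against 10885 or more for *Aqp2*. Of its 2886 exon bases, 81.3% also lie in exons of *Arhgap4* on the opposite strand, so that its few reads may not be its own. Its median was 0.0343 TPM in males and 0.0730 TPM in females, and the 95% interval of its log2 fold change in Pkd1KO against Pkd1KO+ciliaKO males ran from -1.64 to 1.35.

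**Figure D1:**
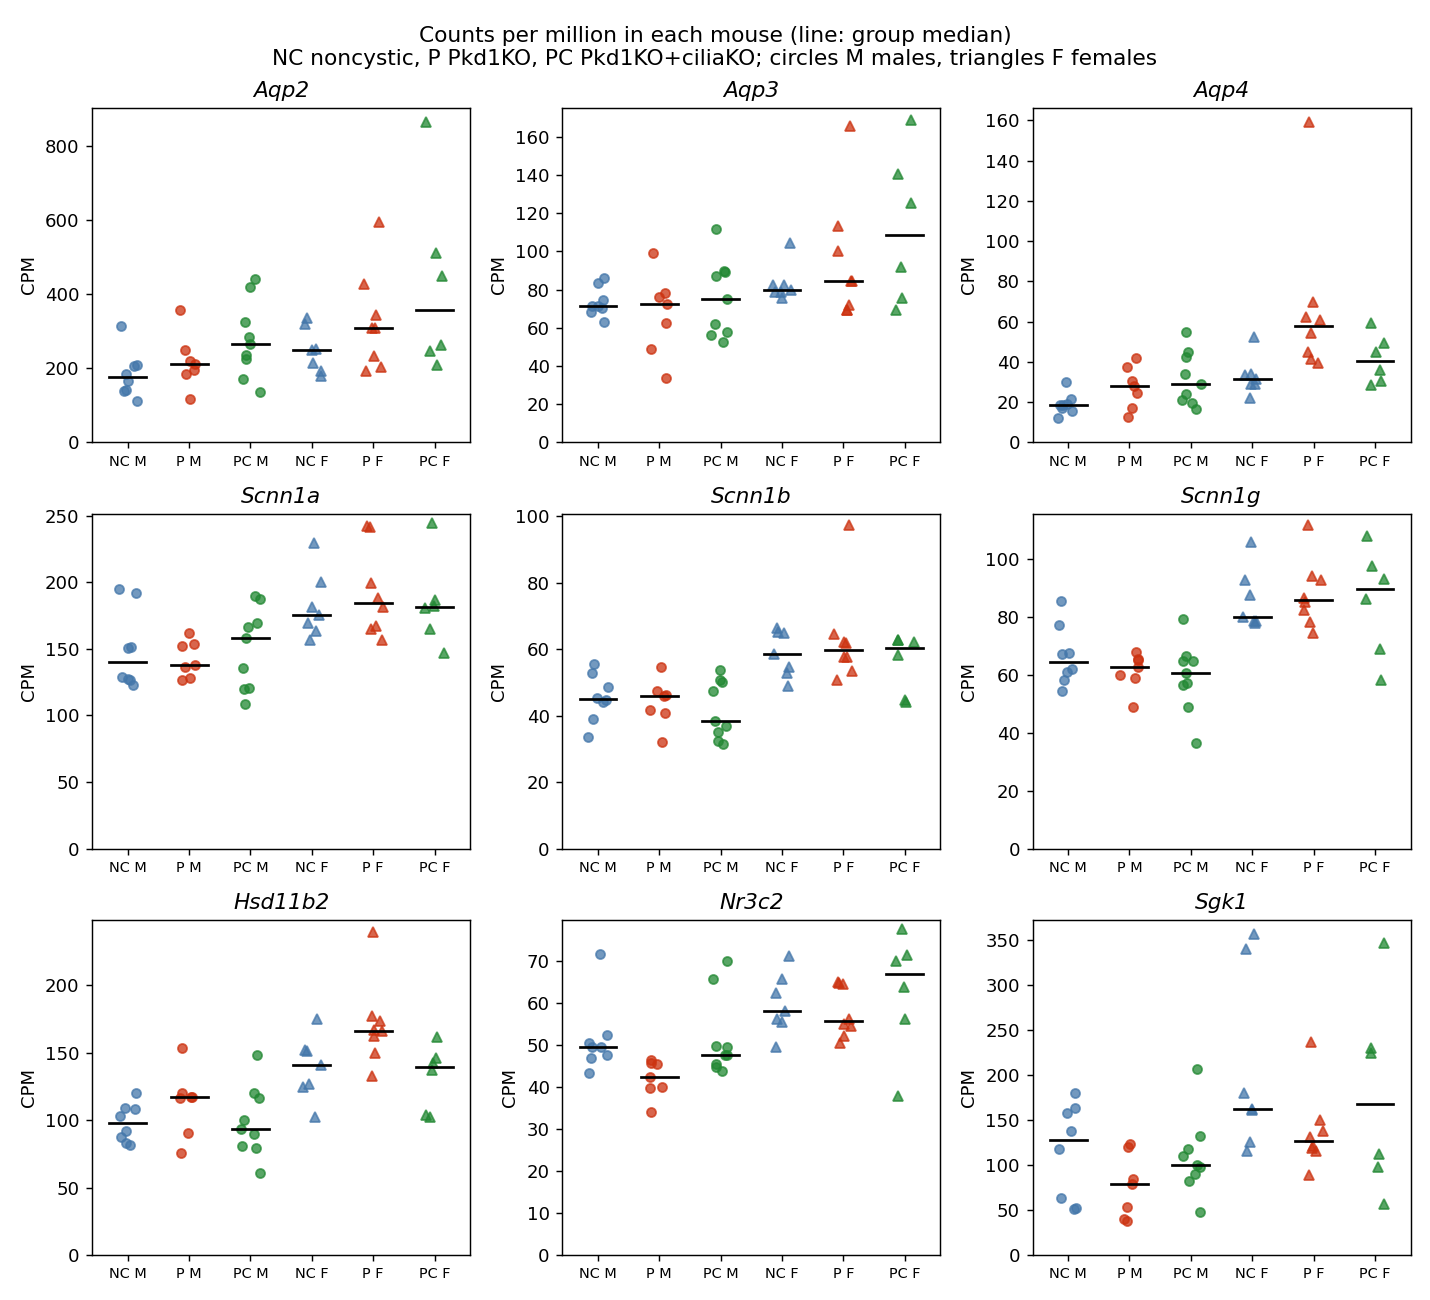
CPM (y axis, linear from 0) of the 9 countable members in each mouse, by genotype (x axis and colour) in males (circles) and females (triangles); black lines are group medians. *Aqp4* was highest in Pkd1KO females, with a median of 57.7 CPM, and *Scnn1g* lay lower in males than in females in each genotype.

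Few members passed the genotype tests. By the quasi-likelihood test of edgeR (Benjamini-Hochberg adjusted p), no member was called in Pkd1KO against noncystic males (6.3% of all genes called), in Pkd1KO against Pkd1KO+ciliaKO males (3.77%), in Pkd1KO against Pkd1KO+ciliaKO females (11.7%) or in Pkd1KO+ciliaKO against noncystic females (2.54%). In these comparisons 2, 1, 2 and 2 members had an unadjusted p under 0.05, where 22.1%, 19.7%, 27.7% and 21.4% of all genes did. DESeq2 called 1, 0, 1 and 0 members, and limma 0 in each. Without the 2 libraries that went against their labels, 926 genes in place of 405 were called in Pkd1KO+ciliaKO against noncystic females, and without the males that stood apart, 2240 in place of 1422 in Pkd1KO+ciliaKO against noncystic males. In Pkd1KO+ciliaKO against noncystic males and in Pkd1KO against noncystic females, *Aqp4* alone was called. It was among the 2 and 3 members with an unadjusted p under 0.05 in these comparisons (24.3% and 16.4% of all genes).

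*Aqp4* was the member called in most comparisons. It encodes a basolateral water channel (chromosome 18, 15389496 to 15410982). Noncystic females had a lowest, median and highest value of 22.1, 31.3 and 52.2 CPM, Pkd1KO females 39.4, 57.7 and 159 CPM, and Pkd1KO+ciliaKO females 28.7, 40.4 and 59.5 CPM. All 8 Pkd1KO females lay above the noncystic median, and 5 lay above every noncystic female, although the groups overlapped. *Aqp4* was 2.02-fold higher in Pkd1KO than in noncystic females (log2 fold change 1.01, SE 0.26, adjusted p = 0.0423, edgeR), where 3.34% of all genes were called. Without noncystic replicate 5, the library of these groups that went against its label, the log2 fold change was 0.99 and the adjusted p 0.0695 (edgeR), so the call was lost. It was also lost with limma (adjusted p = 0.0582) and held in 6 of 15 fits that left out 1 mouse, with the highest adjusted p of 0.0944 without noncystic replicate 6. In those 15 fits the log2 fold change ran from 0.68 to 1.17. The highest Pkd1KO female, replicate 8, had 159 CPM, against 69.8 CPM in the next.

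In males, the lowest, median and highest *Aqp4* values were 12.1, 18.5 and 30.2 CPM in noncystic, 12.6, 27.7 and 41.9 CPM in Pkd1KO, and 16.7, 28.7 and 54.8 CPM in Pkd1KO+ciliaKO mice. Of the 9 Pkd1KO+ciliaKO males, 8 lay above the noncystic median and 4 above every noncystic male. *Aqp4* was 1.67-fold higher in Pkd1KO+ciliaKO than in noncystic males (log2 fold change 0.74, SE 0.22, adjusted p = 0.0449, edgeR), where 8.89% of all genes were called. Noncystic replicate 3 and Pkd1KO+ciliaKO replicates 6 and 8, among the males that stood apart, had 30.2, 54.8 and 42.6 CPM; without the males apart the log2 fold change was 0.62 (adjusted p = 0.0375). The call was lost with no filter on low counts, with 3 genotypes in 1 fit and with limma (adjusted p = 0.0523, 0.0584 and 0.0842), and held in 5 of 17 fits that left out 1 mouse, with the highest adjusted p of 0.0914 without noncystic replicate 2. The Pkd1KO males were 1.44-fold above the noncystic males (log2 fold change 0.52, SE 0.23, adjusted p = 0.184), which did not pass. Without noncystic replicate 3 and Pkd1KO replicate 4, the males of these groups that stood apart, this difference was 0.78 on the log2 scale (adjusted p = 0.0144, edgeR).

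Neither sex gave a called *Aqp4* difference between Pkd1KO and Pkd1KO+ciliaKO mice. The log2 fold change was -0.22 in males (95% interval -0.79 to 0.35) and 0.68 in females (0.08 to 1.29, adjusted p = 0.129). The difference between these effects was -0.90 (SE 0.38, unadjusted p = 0.0230, adjusted p = 0.524), so it did not pass either. No member passed the test of a sex difference in any of the 3 genotype effects, where 2, 35 and 5 genes of 15828 (0.0126%, 0.221% and 0.0316%) were called. An unadjusted p under 0.05 was found for 0, 1 and 0 members, beside 8.08%, 7.94% and 5.49% of all genes. DESeq2 called no member, beside 29, 72 and 21 of all genes.

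When both sexes entered 1 fit and the male and female effects were averaged, a comparison added after the values had been seen, *Aqp4* was 1.71-fold higher in Pkd1KO than in noncystic mice (log2 fold change 0.77, SE 0.19, adjusted p = 0.003, edgeR; 15.9% of genes called). It was 1.45-fold higher in Pkd1KO+ciliaKO than in noncystic mice (0.54, SE 0.19, adjusted p = 0.0410; 19.3% of genes called). Without the 6 doubted libraries these values were 0.88 (adjusted p = 0.000476) and 0.50 (adjusted p = 0.0450). Some markers of inner medullary collecting duct and thin limb were higher too: 2 of 3 in Pkd1KO+ciliaKO than in noncystic males (summed level 271 to 476 CPM against 209 to 321 CPM), and 1 of 3 in Pkd1KO than in noncystic females (412 to 555 CPM against 317 to 462 CPM), with none at 0 in any group. Within groups, over 45 mice, *Aqp4* had a Pearson's r of 0.28 with the sum of these markers. With a list of principal cell markers that are no members it was 0.47. Of 6 tubule injury genes, 2 were higher in the same males and none in the same females by edgeR. Their part in the *Aqp4* result was not tested.

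*Aqp2*, the vasopressin-regulated apical channel (chromosome 15, 99579055 to 99584547), varied widely within groups. Noncystic males ran from 110.5 over a median of 175 to 315 CPM, Pkd1KO males from 116 over 211 to 357 CPM, and Pkd1KO+ciliaKO males from 136 over 265 to 440 CPM. In females the medians were 249, 310 and 357 CPM in the same order, and the highest mouse, Pkd1KO+ciliaKO female replicate 1, had 867 CPM. The medians rose in the same order in each sex, but all groups overlapped. No pairwise difference was called; the largest, in Pkd1KO+ciliaKO against noncystic mice, was 0.60 (SE 0.23, adjusted p = 0.107) in males and 0.77 (SE 0.28, adjusted p = 0.139) in females, on the log2 scale.

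The averaged fit called *Aqp2* higher in Pkd1KO+ciliaKO than in noncystic mice, by 1.61-fold (log2 fold change 0.68, SE 0.19, adjusted p = 0.0115, edgeR), and by 0.79 on the log2 scale without the 6 doubted libraries (adjusted p = 0.00315). Against noncystic mice, Pkd1KO mice differed by 0.32 (95% interval -0.06 to 0.71), and against Pkd1KO+ciliaKO mice by -0.36 (-0.75 to 0.03), neither called. Principal cell markers that are no members rose in the males of the same comparison. In Pkd1KO+ciliaKO against noncystic males, 4 of 9 were higher (*Elf5*, *Apela*, *Npnt*, *Fxyd4*) and none was lower, with a median of 0.46 against 0.01 for all genes. Their summed level was 281 to 401 CPM in noncystic and 347 to 526.1 CPM in Pkd1KO+ciliaKO males. In females 1 of 9 (*Stc1*) was higher, with sums of 448 to 722 CPM in noncystic and 574 to 699 CPM in Pkd1KO+ciliaKO mice. The median of the female sums was lower in Pkd1KO+ciliaKO (616 CPM) than in noncystic mice (654 CPM), while *Aqp2* was higher by median. None of the 9 markers was at 0 in any group, and their part in the *Aqp2* result was not tested. In whole kidneys, more principal cells and more RNA per cell cannot be told apart.

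*Aqp3*, a basolateral channel for water and glycerol (chromosome 4, 41092722 to 41098183), was called in no genotype pair. Its median ranged from 71.6 to 74.9 CPM over the male groups and from 79.7 to 108.5 CPM over the female groups. The largest difference was between Pkd1KO+ciliaKO and noncystic females (log2 fold change 0.42, 95% interval 0.05 to 0.80, adjusted p = 0.178).

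Within each library, the TPM ratio of *Aqp2* to *Aqp3* had a median of 3.03 in noncystic, 4.23 in Pkd1KO and 4.64 in Pkd1KO+ciliaKO males. In females the medians were 3.88, 4.40 and 4.42. The ranges overlapped in each sex, from 2.09 to 5.42 in noncystic and from 3.01 to 6.53 in Pkd1KO+ciliaKO males. This is a description, with no test.

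**Figure D2:**
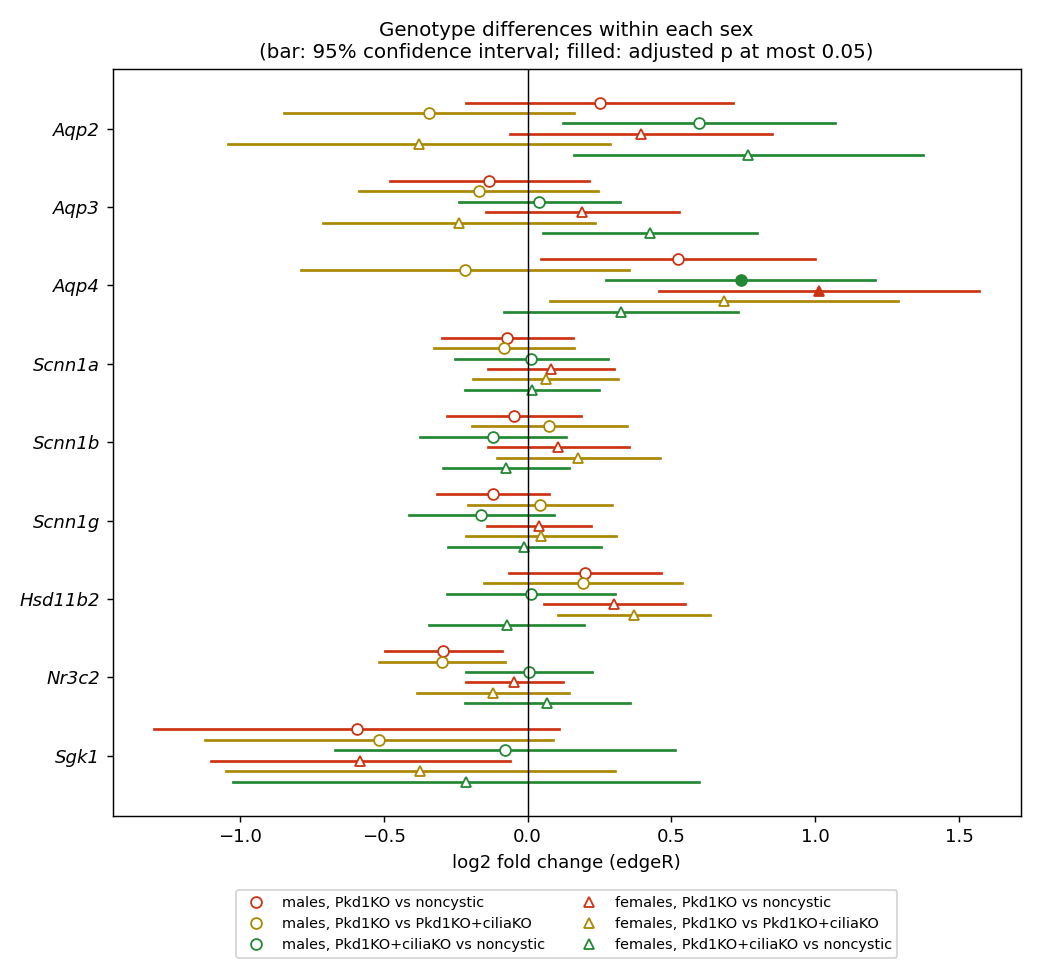
Log2 fold changes (x axis) of 9 members (y axis) in the 6 genotype comparisons, males as circles and females as triangles, with 95% confidence intervals; filled symbols have an adjusted p of at most 0.05. Only the *Aqp4* values of 0.74 (Pkd1KO+ciliaKO against noncystic males) and 1.01 (Pkd1KO against noncystic females) are filled, and the sodium channel subunits lie near 0.

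The ENaC subunits did not pass the test in any genotype comparison, and their intervals were narrow. *Scnn1a* (alpha; chromosome 6, 125320659 to 125344943), *Scnn1b* (beta; chromosome 7, 121865038 to 121918514) and *Scnn1g* (gamma; chromosome 7, 121734479 to 121768475) gave 18 pairwise log2 fold changes between -0.16 and 0.18, with adjusted p-values of 0.414 or higher. The 95% intervals of these 18 values together ran from -0.41 to 0.46, that is from 0.751-fold to 1.37-fold. Changes larger than that lay outside the intervals for each subunit, in each sex. In the averaged fit the 9 intervals ran from 0.823-fold to 1.24-fold.

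Per mouse, *Scnn1g* illustrates this. Its lowest, median and highest values were 54.4, 64.5 and 85.3 CPM in noncystic, 49.04, 62.6 and 68.0 CPM in Pkd1KO, and 36.5, 60.7 and 79.2 CPM in Pkd1KO+ciliaKO males. In females they were 78.0, 80.0 and 106 CPM, 74.3, 85.8 and 112 CPM, and 58.1, 89.5 and 108 CPM. The genotypes overlapped within each sex, while the males lay below most females. Their proportions were close by median: the median TPM ratio of *Scnn1b* to *Scnn1a* was 0.446 to 0.484 over the male groups and 0.510 to 0.533 over the female groups, and that of *Scnn1g* to *Scnn1a* 0.563 to 0.627 and 0.641 to 0.676. Pkd1KO+ciliaKO female replicate 1 lay far below, at 0.284 and 0.328.

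*Hsd11b2* (chromosome 8, 105518755 to 105523988) was highest in Pkd1KO mice by median in each sex. Its lowest, median and highest values were 103, 141 and 175 CPM in noncystic, 133, 167 and 240 CPM in Pkd1KO, and 102, 140 and 161 CPM in Pkd1KO+ciliaKO females. In males the medians were 97.6, 117 and 93.1 CPM. Of the 8 Pkd1KO females, 6 lay above every Pkd1KO+ciliaKO female. That difference was 0.37 on the log2 scale (SE 0.13, adjusted p = 0.0670), just outside the threshold at which 11.7% of genes were called, and DESeq2 gave an adjusted p of 0.0353. The averaged fit called *Hsd11b2* 1.22-fold higher in Pkd1KO than in Pkd1KO+ciliaKO mice (0.28, SE 0.10, adjusted p = 0.0434, edgeR; 22.4% of genes called), with 0.31 without the 6 doubted libraries (adjusted p = 0.0391). Against noncystic mice the averaged value was 0.25 (SE 0.10, adjusted p = 0.0889).

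*Nr3c2* (chromosome 8, 76899442 to 77245012) had its lowest median in Pkd1KO mice of each sex. Noncystic males had 43.2, 49.5 and 71.6 CPM as lowest, median and highest value, Pkd1KO males 34.0, 42.4 and 46.4 CPM, and Pkd1KO+ciliaKO males 43.9, 47.7 and 69.9 CPM. All 7 Pkd1KO males lay below the median of either other male group, and 4 lay below every mouse of each. The differences of -0.29 (SE 0.10, adjusted p = 0.0826) and -0.30 (SE 0.10, adjusted p = 0.122) did not pass, in comparisons that called 6.3% and 3.77% of genes; DESeq2 gave an adjusted p of 0.0496 for the first. In females the values were -0.05 (95% interval -0.21 to 0.12) and -0.12 (-0.39 to 0.15). The highest noncystic male, replicate 3, was 1 of the 4 males that stood apart. Without those of the 4 in the groups compared, the 2 differences were -0.20 (adjusted p = 0.147, edgeR) and -0.16 (adjusted p = 0.282). Markers of other distal cells moved in the same males: 2 of 5 thick ascending limb genes (*Egf*, *Slc12a1*) and 1 of 8 intercalated cell genes (*Atp6v1b1*) fell in Pkd1KO against noncystic males. The medians of their sums were 3961, 2268 and 3944 CPM for thick ascending limb and 495, 425 and 563 CPM for intercalated cells in noncystic, Pkd1KO and Pkd1KO+ciliaKO males. Within groups, over 45 mice, *Nr3c2* had r of 0.43 and 0.56 with these lists. Their part in the *Nr3c2* values was not tested.

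*Sgk1* (chromosome 10, 21882184 to 21999903), the kinase induced by aldosterone and glucocorticoids, was the most variable member. Its pooled SD between mice of a group was 0.68 on the log2 scale, a 1.60-fold spread, and 97.6% of genes tested varied less. The lowest, median and highest values were 51.5, 128 and 180 CPM in noncystic, 37.4, 79.4 and 123 CPM in Pkd1KO, and 47.4, 100 and 206 CPM in Pkd1KO+ciliaKO males. In females they were 116, 162 and 356 CPM, 89.1, 126 and 236 CPM, and 56.4, 168 and 347 CPM. The Pkd1KO group had the lowest median in each sex, and all groups overlapped. Its log2 fold change against noncystic mice was -0.59 in males (SE 0.33, adjusted p = 0.314) and -0.58 in females (SE 0.25, adjusted p = 0.237), neither called. The averaged value of -0.59 (95% interval -1.06 to -0.11, adjusted p = 0.0826) did not pass either.

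More members were called between the sexes than between any 2 genotypes, but so were more of all genes than in the pairwise genotype tests. In either direction, 4334, 4844 and 3064 of 15828 genes were called between the sexes among noncystic, Pkd1KO and Pkd1KO+ciliaKO mice. The pairwise genotype tests called 405 to 1869 genes. The sex tests came from 1 fit of all 45 mice, the pairwise tests from 2 groups each. Every countable member had a negative male-over-female log2 fold change in each genotype. Among noncystic mice 4 members were called lower in males (*Aqp4*, *Scnn1b*, *Scnn1g*, *Hsd11b2*), where 13.3% of all genes were called lower. Among Pkd1KO mice it was 7 (*Aqp3*, *Aqp4*, all 3 ENaC subunits, *Hsd11b2*, *Nr3c2*; 14.3% of genes), and among Pkd1KO+ciliaKO mice 4 (*Aqp3*, *Scnn1b*, *Scnn1g*, *Hsd11b2*; 8.19% of genes). *Scnn1b*, *Scnn1g* and *Hsd11b2* were called in each genotype. The members' median was -0.40, -0.52 and -0.42, against -0.03, 0.01 and -0.01 for all genes.

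*Hsd11b2* was 0.706-fold in noncystic males relative to noncystic females (log2 fold change -0.50, SE 0.14, adjusted p = 0.00733, edgeR), 0.660-fold in Pkd1KO mice (adjusted p = 0.00155) and 0.747-fold in Pkd1KO+ciliaKO mice (adjusted p = 0.0363). *Scnn1g* was 0.775-fold, 0.695-fold and 0.697-fold (adjusted p = 0.0171, 0.000783 and 0.00161). *Scnn1b* was 0.775-fold, 0.698-fold and 0.749-fold (adjusted p = 0.026, 0.00188 and 0.0185). Each of these 9 values lay between 0.660-fold and 0.775-fold. Without the 6 doubted libraries, the *Hsd11b2* value in Pkd1KO+ciliaKO mice no longer passed (adjusted p = 0.0776, edgeR). Neither did *Aqp3* in Pkd1KO mice (adjusted p = 0.121). In these fits 7, 7 and 8 members were called among noncystic, Pkd1KO and Pkd1KO+ciliaKO mice. Of all genes 5463, 5326 and 5226 were called, against 4334, 4844 and 3064 with every library. The 4 males left out were picked for lying beside the females, so the choice itself favoured more calls between the sexes. *Aqp4* showed the widest gap, 0.411-fold in Pkd1KO males (log2 fold change -1.28, SE 0.27, adjusted p = 0.000346), with 0.576-fold in noncystic males (adjusted p = 0.0213) and 0.767-fold in Pkd1KO+ciliaKO males (adjusted p = 0.339).

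No male reached the female range for *Scnn1g* and *Nr3c2* among Pkd1KO mice; 3.5% of all genes had all Pkd1KO males below all Pkd1KO females, against 2.8% among noncystic and 1.23% among Pkd1KO+ciliaKO mice. *Scnn1g* males ended at 68.0 CPM and females began at 74.3 CPM; *Nr3c2* males ended at 46.4 CPM and females began at 50.4 CPM. In all other member and genotype pairs the sexes overlapped.

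Markers of the cells moved with the sexes too. Of the 9 principal cell markers, 5, 5 and 3 were lower in males among noncystic, Pkd1KO and Pkd1KO+ciliaKO mice. Their sums, 281 to 401 CPM in noncystic males and 448 to 722 CPM in noncystic females, did not overlap. Of 8 intercalated cell markers, 4, 7 and 4 were lower. Of 7 proximal tubule markers, 3 were higher in males in each genotype, and 0, 1 and 2 were lower. Of 6 tubule injury genes, 5, 1 and 1 were lower in males, with sums of 377 to 753 CPM in noncystic males and 1079 to 1544 CPM in noncystic females, which did not overlap. Of 4 connecting tubule markers, 1, 1 and 0 were lower, with medians of the sum of 3503 CPM in noncystic males and 4826 CPM in noncystic females. No marker of these lists was at 0 in any group. The part of these shifts in the members' sex difference was not tested.

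**Figure D3:**
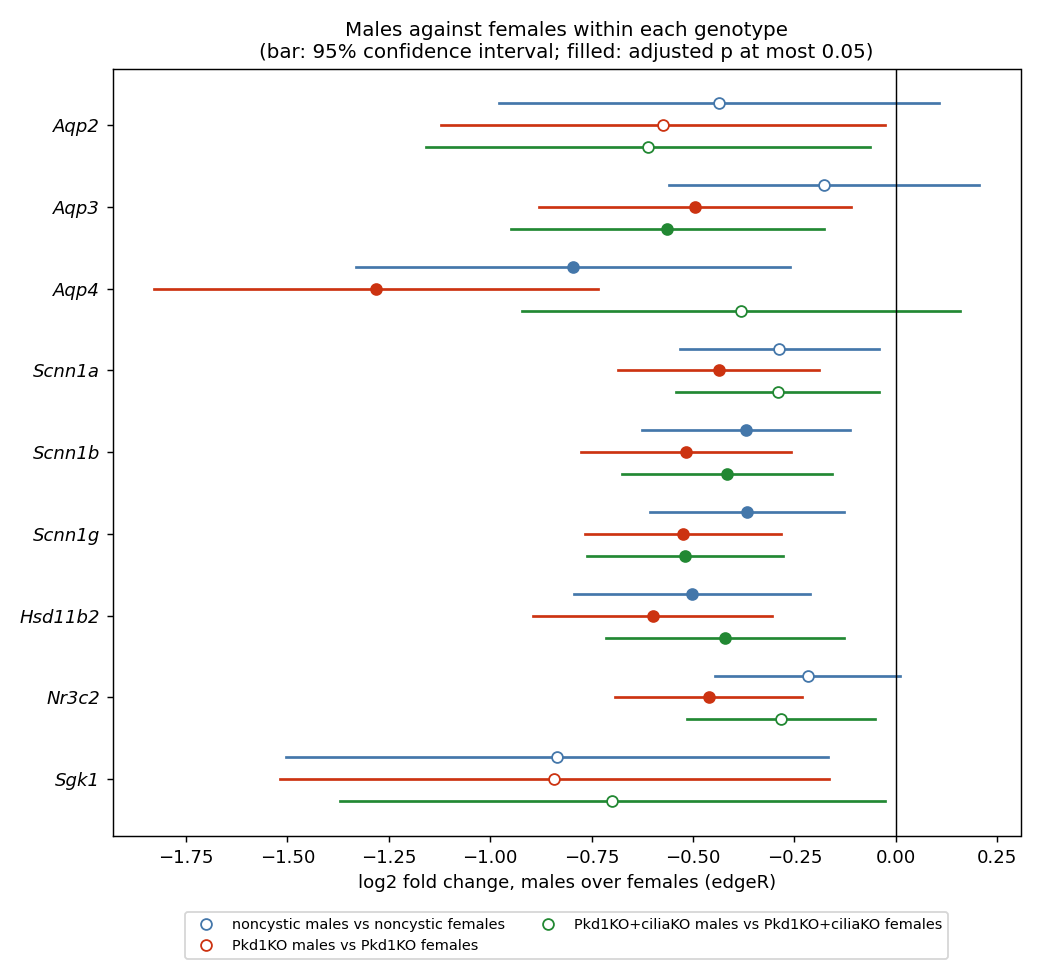
Male-over-female log2 fold changes (x axis) of 9 members (y axis) in each genotype (colour) with 95% confidence intervals; filled symbols have an adjusted p of at most 0.05. All points lie left of 0, from -0.18 for *Aqp3* in noncystic mice to -1.28 for *Aqp4* in Pkd1KO mice.

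Other genes of the pathway came from lists chosen for their known role. Of 20 genes of vasopressin and cAMP signalling and of principal cell transcription, 1 rose and 3 fell in Pkd1KO against noncystic males, where 6.3% of all genes were called. *Creb3l1*, a transcription factor processed in the Golgi, rose (0.61, SE 0.12, adjusted p = 0.00552), while *Tfap2b*, a distal nephron transcription factor, fell (-0.58, SE 0.10, adjusted p = 0.00196), as did *Akap7*, an anchor of protein kinase A (-0.30, SE 0.07, adjusted p = 0.0218), and *Tfcp2l1*. In the females of that comparison none of the 20 was called by edgeR (3.34% of all genes). Against Pkd1KO+ciliaKO mice, *Tfap2b* was lower in Pkd1KO mice of each sex, beside *Gata3* and *Elf5* in males and *Ptger3*, a prostaglandin E2 receptor, in females, while *Creb3l1* (0.92, SE 0.20, adjusted p = 0.00866) and the cAMP phosphodiesterase *Pde4d* (0.60, SE 0.14, adjusted p = 0.0128) were higher in females. The counts were 0 higher and 3 lower in males (3.77% of all genes called), and 2 higher and 2 lower in females (11.7%). In Pkd1KO+ciliaKO against noncystic mice (8.89% of all genes called in males, 2.54% in females), *Elf5* and *Elf3* were higher in males and *Ptger3* in females, with none lower.

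Of 22 genes of aldosterone response and ENaC regulation, 2 in males and 1 in females were called in Pkd1KO against noncystic mice (6.3% and 3.34% of all genes), 1 and 3 in Pkd1KO against Pkd1KO+ciliaKO mice (3.77% and 11.7%), and 2 and 1 in Pkd1KO+ciliaKO against noncystic mice (8.89% and 2.54%). *Ndrg2*, an aldosterone-induced gene, fell in Pkd1KO against noncystic mice in males (-0.46, SE 0.11, adjusted p = 0.0215) and in females (-0.35, SE 0.09, adjusted p = 0.0306), with *Wnk1* beside it in males (-0.35, SE 0.10, adjusted p = 0.0491). *Prss8*, the channel-activating protease prostasin, was higher in Pkd1KO than in Pkd1KO+ciliaKO females (0.43, SE 0.08, adjusted p = 0.00469) and lower in Pkd1KO+ciliaKO than in noncystic females (-0.34, SE 0.08, adjusted p = 0.0364). *Rictor* and *Ndrg2* were lower in Pkd1KO than in Pkd1KO+ciliaKO females, and the potassium channel gene *Kcnj1* in males. In Pkd1KO+ciliaKO against noncystic males, *Cnksr3* was higher and *Kcnma1* lower. The potassium channel genes *Kcnj1* and *Kcnj10* were lower in males than in females in each genotype, *Kcnj10* by -0.45, -0.55 and -0.53.

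Of the 9 other aquaporin genes, 8 were tested. *Aqp7*, an aquaglyceroporin of the proximal tubule, was higher in Pkd1KO than in noncystic males (0.37, SE 0.08, adjusted p = 0.00789) and than in Pkd1KO+ciliaKO mice of each sex (0.58 in males, adjusted p = 0.0356; 0.64 in females, adjusted p = 0.0107). *Aqp6*, an intercalated cell aquaporin, was higher in Pkd1KO+ciliaKO than in noncystic males (0.66, SE 0.13, adjusted p = 0.00406). In Pkd1KO+ciliaKO females, *Aqp7* and *Aqp1* were lower than in noncystic females. Between the sexes, *Aqp6* was lower in males among noncystic and Pkd1KO mice, and *Aqp11* or *Aqp7* was higher in males in each genotype.

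The members differed in how closely they varied together between mice of the same group. After subtraction of the 6 group means, over 45 mice, Pearson's r of the log2 CPM deviations was 0.84 for *Aqp2* and *Aqp3* (Spearman's rho 0.83, r without the 2 farthest mice 0.83), the highest of any tested gene with either. *Scnn1b*, *Scnn1g* and *Hsd11b2* also varied together, with r of 0.80 for *Scnn1b* and *Scnn1g*, and 0.84 for each of them with *Hsd11b2* (0.78, 0.82 and 0.82 without the farthest mice). *Scnn1a* had r of 0.66 with *Scnn1b* and 0.51 with *Scnn1g*, and 0.75 and 0.65 without the farthest mice. Between the water channels and the other genes r reached 0.69 for *Aqp3* with *Hsd11b2*, 0.63 for *Aqp3* with *Scnn1b* and 0.54 for *Aqp2* with *Hsd11b2*. *Nr3c2* had r of 0.50 with *Scnn1g* and 0.45 with *Scnn1b*, and of 0.01 with *Aqp3* and 0.03 with *Aqp2*, the last being 0.27 without the farthest mice. *Sgk1* lay between -0.02 and 0.35 with every other countable member. These values describe mice that share group labels and library make-up, and carry no test.

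The nearest gene to *Scnn1b* was *Rhcg*, an ammonia transporter (r = 0.90), and to *Scnn1a* it was *Kcnq1*, a potassium channel gene (r = 0.86). *Hsd11b2* was nearest to *Tmem45b* (r = 0.85), a principal cell marker of the list above, and *Nr3c2* to *Dach1* (r = 0.86). The 2 genes nearest to *Sgk1* were *Per1* (r = 0.82) and *Tsc22d3* (r = 0.79). *Aqp4* had its nearest gene in *Muc20* (r = 0.69). With the summed markers of thick ascending limb, connecting tubule and principal cells, *Scnn1a* had r of 0.70, 0.44 and 0.24. For *Scnn1b* these were 0.66, 0.67 and 0.36, for *Scnn1g* 0.37, 0.65 and 0.40, and for *Hsd11b2* 0.44, 0.68 and 0.48. For *Aqp2* they were 0.29, 0.32 and 0.38. The part of these cells in the members' levels was not tested.

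**Figure D4:**
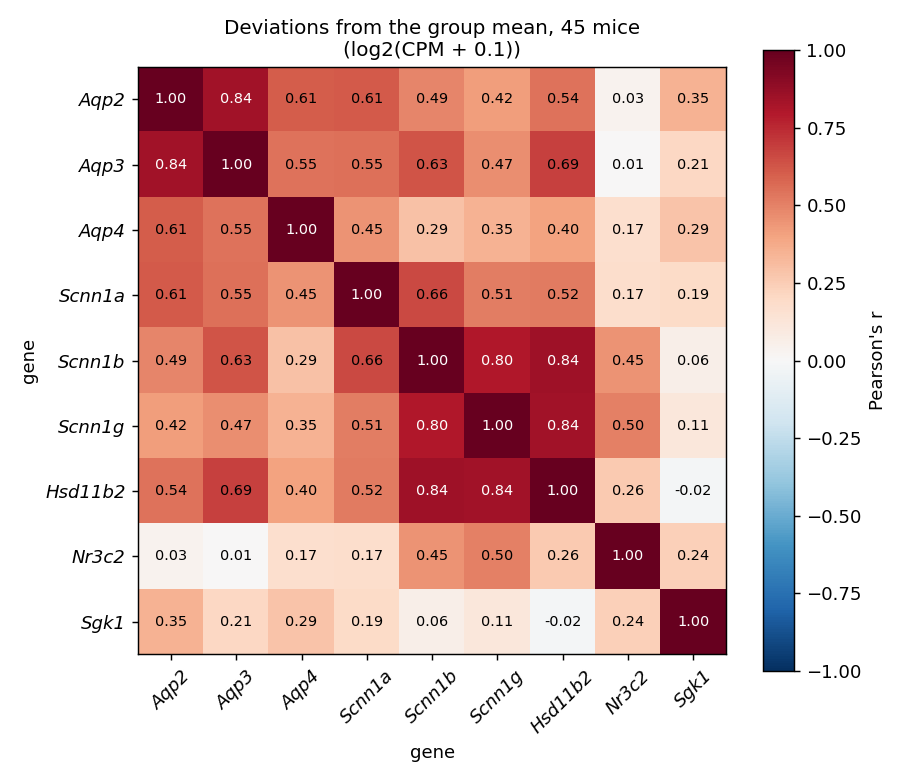
Pearson's r between 9 members (both axes list the genes) of log2 CPM deviations from the group mean, over 45 mice; red is positive. *Aqp2* with *Aqp3* (0.84) and *Hsd11b2* with *Scnn1b* and *Scnn1g* (0.84 each) are the strongest pairs, and *Sgk1* and *Nr3c2* are the palest.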

How the data were processed

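TRAP RNA of 45 mouse kidneys was sequenced as 1 batch. Per the labels and the study's methods, read trimming used fastp 0.20.0, alignment to GRCm38.p6 used STAR 2.7.9, and featureCounts 2.0.0 gave the authors' fragment counts per gene; the strand setting is not given in the sources used here. The deposited count tables hold raw fragment counts, and the authors' TPM tables, 1 per sex, hold the genes past their filter of 6 counts in 20% of mice. Of the genes in the male TPM table, 15955 passed that filter when it was recomputed and 36 did not.

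Protein-coding genes of each TPM table were tested (15991 in males, 15968 in females) with edgeR 4.0.16 (TMM, quasi-likelihood, Benjamini-Hochberg adjusted p of at most 0.05; R 4.3.3), pairwise within a sex; 1 fit of all 6 groups gave the differences between sexes. The study's own test was DESeq2, used here (1.42.0) as an alternative, with limma 3.58.1 on TPM. CPM used TMM library sizes of all mice, and correlations log2(CPM + 0.1). The fits were tested on simulated data. At this depth counting error is small for every member but *Avpr2*. No 2 libraries of a group were alike within counting noise (149 pairs, lowest chi-square per degree of freedom 51.4). Replicate numbers did not pair the mice: in no comparison did every same-numbered pair correlate above 0.1.

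The members, lists and tests were chosen with earlier results of these data known. Named list genes are those with the 3 smallest p-values among the called, with the other called genes by name only; like genes are the 3 with the highest r. The comparisons of Pkd1KO and of Pkd1KO+ciliaKO males with females, and the averaged fit, were added later. *Nr3c2* shares 3.82% of its exon bases with another gene on the opposite strand.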

Additional observations from a re-analysis of the deposited data

Results flagged for a closer look

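Single mice far from the rest of their group were looked for in 66 groups of values (10 members and *Kif3a* in 6 groups), and 12 were found. The nominal chance rate of about 1 in 20 was not measured here. It takes the groups of values as independent, which those of genes that vary together are not. Pkd1KO female replicate 3 was the highest of its group for *Aqp3* (166 CPM, the next mouse 113), *Scnn1b* (97.4 CPM, next 64.5) and *Hsd11b2* (240 CPM, next 177). Without that mouse, *Aqp3* was no longer called between Pkd1KO males and females (adjusted p = 0.169, edgeR). Pkd1KO female replicate 8 had the highest *Aqp4* of all mice (159 CPM, next 69.8), and noncystic female replicate 7 the highest of its group (52.2 CPM, next 33.7). Without noncystic female replicate 7, *Aqp4* was no longer called between noncystic males and females (adjusted p = 0.0751).

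Noncystic female replicate 4 stood out for *Aqp3* (104 CPM, next 82.7), Pkd1KO female replicate 2 for *Sgk1* (236 CPM, next 150) and noncystic male replicate 3 for *Nr3c2* (71.6 CPM, next 52.4).

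*Kif3a* stood out in the library labelled noncystic female replicate 5 (6.69 CPM, next 23.2) and in the library labelled Pkd1KO+ciliaKO female replicate 6 (20.7 CPM, next 8.47), the 2 libraries that went against their labels. Smaller departures were noncystic male replicate 8 (13.8 CPM, next 20.4) and Pkd1KO male replicate 3 (29.3 CPM, next 24.9).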

How the results depend on the processing

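In Pkd1KO against noncystic males (0 members, 1008 of all genes), DESeq2 gave 1 (1640 of all genes). Leaving out noncystic replicate 3 and Pkd1KO replicate 4, which stood apart, also gave 1 (915 of all genes). In Pkd1KO+ciliaKO against noncystic males (1 member), the count was 0 with no filter on low counts, 0 with 3 genotypes in 1 fit and 0 with limma on TPM (*Aqp4* adjusted p = 0.0523, 0.0584 and 0.0842). In Pkd1KO against noncystic females (1 member), it was 0 with limma and 0 without noncystic replicate 5, which went against its label. With the replicate number as a block it was also 0 (*Aqp4* log2 fold change 0.71, adjusted p = 0.0686, edgeR). In Pkd1KO against Pkd1KO+ciliaKO females (0 members, 1869 of all genes), DESeq2 gave 1 (2504 of all genes). The replicate block also gave 1 (612 of all genes), *Hsd11b2* in both. The replicate block gave 6, 6 and 1 members between the sexes in noncystic, Pkd1KO and Pkd1KO+ciliaKO mice, against 4, 7 and 4. Of all genes it gave 4397, 4310 and 2646, against 4334, 4844 and 3064. The numbers do not pair the mice. Without the 6 doubted libraries the sexes differed in 7, 7 and 8 members in the same order, and in 5463, 5326 and 5226 of all genes. The males left out lay beside the females, so this choice favours more calls between the sexes. The averaged fit, chosen after seeing the data, gave 1, 1 and 2 members for the 3 genotype pairs.

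Leaving out 1 mouse at a time gave 0 to 2 members in Pkd1KO+ciliaKO against noncystic males, 0 to 1 in Pkd1KO against noncystic females, 0 to 1 in Pkd1KO against Pkd1KO+ciliaKO females, and 0 in the other genotype pairs. *Aqp4* kept its call in 5 of 17 and in 6 of 15 such fits, with adjusted p of up to 0.0914 (without noncystic male replicate 2) and 0.0944 (without noncystic female replicate 6). Between the sexes the range was 2 (without noncystic female replicate 4) to 7 (without noncystic male replicate 3) in noncystic, 6 to 8 in Pkd1KO, and 1 (without Pkd1KO+ciliaKO female replicate 3) to 6 (without Pkd1KO+ciliaKO male replicate 6) in Pkd1KO+ciliaKO mice. *Hsd11b2* in Pkd1KO+ciliaKO mice lost its call without the 6 libraries (adjusted p = 0.0776). Of 4380 gene values under alternatives, 67 lost and 54 gained a call and 0 called values reversed; 188 uncalled values changed sign. The cause was not tested. Over all genes, Pkd1KO+ciliaKO against noncystic females ranged from 8 (without Pkd1KO+ciliaKO female replicate 2) to 746 calls (without noncystic female replicate 5) against 405, DESeq2 gave 1279 and the fit without the 2 libraries against their labels 926; Pkd1KO+ciliaKO against noncystic males gave 2240 without the males apart against 1422. Depth limits *Avpr2* alone.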
